A study of Rattus norvegicus with 19 samples.

Results

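Liver RNA of Wistar Han rats (Crl:WI (Han)) whose dams were gavaged with DE-71 at 15 mg/kg per day was compared with liver RNA of the corn oil vehicle group. DE-71 is a commercial pentabromodiphenyl ether mixture that was used as a flame retardant. The groups were taken from the sample titles and gave 4 arrays at 15 mg/kg and 5 vehicle arrays, 9 of the 19 arrays of the series, and every probe set other than the Affymetrix controls was tested. Dosing ran from gestation day 6 to postnatal day 4, and the left lobe of the liver was taken on postnatal day 4. The other arrays came from 0.1 and 50 mg/kg. Of these, only the 5 arrays at 50 mg/kg are set beside the 15 mg/kg values. The labels do not say whether arrays came from separate litters, so p-values measure only the spread between these samples. They give the sex as female, and they do not say whether a liver came from a pup or a dam. All 9 arrays carried Y-linked transcripts, described below, so these were not livers of dams.

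Foreign compounds reach liver genes mainly through ligand-activated transcription factors. The aryl hydrocarbon receptor (AhR) binds planar aromatic compounds, pairs with ARNT in the nucleus and raises transcription of the Cyp1 monooxygenases and Nqo1. The constitutive androstane receptor (CAR) and the pregnane X receptor (PXR) act on the Cyp2b, Cyp2c, Cyp2a and Cyp3a monooxygenases, on conjugating enzymes such as the Ugt2b glucuronosyltransferases, and on export pumps. The comparison describes which genes tied to these routes, and which other liver genes, differed from vehicle at the middle of the 3 doses. The activity of the receptors themselves was not measured.

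The start of a gene is where these receptors can act close to the promoter, so the 250 bases before the start are shown for 4 genes that AhR is known to regulate and that are described further on. They were read from the RefSeq promoter table of the GRCr8 build, 5′ to 3′ on the gene's strand, and capitals mark the AhR core GCGTG on either strand (CACGC where it lies on the opposite strand).
Cyp1a2, chr8:66978150-66978399, minus strand: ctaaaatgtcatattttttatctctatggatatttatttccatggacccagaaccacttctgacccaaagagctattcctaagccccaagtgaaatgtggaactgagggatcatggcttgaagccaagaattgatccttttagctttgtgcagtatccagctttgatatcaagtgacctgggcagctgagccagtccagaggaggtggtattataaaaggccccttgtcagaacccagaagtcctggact
Cyp1b1, chr6:21094315-21094564, plus strand: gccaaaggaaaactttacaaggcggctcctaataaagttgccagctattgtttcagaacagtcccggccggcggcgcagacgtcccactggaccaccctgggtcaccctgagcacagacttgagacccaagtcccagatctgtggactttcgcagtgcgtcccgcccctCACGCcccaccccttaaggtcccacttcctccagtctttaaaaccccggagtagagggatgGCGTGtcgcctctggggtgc
Nqo1, chr19:52220268-52220517, minus strand: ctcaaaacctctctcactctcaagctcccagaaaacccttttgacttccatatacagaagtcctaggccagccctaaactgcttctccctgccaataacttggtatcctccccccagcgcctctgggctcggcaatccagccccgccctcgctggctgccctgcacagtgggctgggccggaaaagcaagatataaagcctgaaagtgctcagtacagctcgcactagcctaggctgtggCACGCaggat
Ahrr, chr1:30821969-30822218, plus strand: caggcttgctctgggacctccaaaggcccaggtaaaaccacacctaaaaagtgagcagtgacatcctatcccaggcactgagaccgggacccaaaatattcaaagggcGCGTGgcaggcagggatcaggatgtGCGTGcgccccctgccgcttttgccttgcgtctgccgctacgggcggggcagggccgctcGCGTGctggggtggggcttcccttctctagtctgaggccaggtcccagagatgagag
The core GCGTG stood 2 times before Cyp1b1, at 81 and 20 bases before the start, 1 time before Nqo1 at 10 bases, and 3 times before Ahrr. It was not among these letters of Cyp1a2. The full windows, which add 50 bases after the start, held the core in 31.1% of 27457 promoters. Of the other genes described here, Rcan1 and Tiparp held 1 core each, while Ahr, Ces2c, Cyp2a3, Cyp2c7, Cyp3a23-3a1, Mnd1 and Ugt2b1 held none. None of these 13 windows held the antioxidant core TGACNNNGC (12.2% of all promoters). None held the exact letters AGGTCA repeated in the same direction with 3 or 4 bases between (0.0182% and 0.00364% of all promoters). These exact repeats stood in only 5 and 1 of the 27457 promoters, so their absence here cannot show whether looser repeats are missing. Repeats with other letters were not searched for. The letters before Cyp3a23-3a1 held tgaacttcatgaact, which is AGTTCA repeated with 3 bases between on the opposite strand. Both strands were searched, and matches of different motifs were allowed to share bases. Cyp1a1 and Cyp2c6v1 have no entry.

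Several arrays stood apart from their labels or from their group. All 9 arrays carried the Y-linked transcripts Eif2s3y (log2 signal 9.66 to 9.99) and Uty (9.46 to 9.91), and Xist lay between 3.88 and 4.25, although the labelled sex is female. Vehicle replicate 2 carried kidney and pancreas transcripts: Slc12a1, the kidney sodium-potassium-chloride cotransporter, read 11.94 there and at most 3.95 on the other 8 arrays. This array was also nearer to replicate 2 of 0.1 mg/kg (Pearson correlation 0.99857 over all probe sets, median absolute difference 0.0700 on the log2 scale) than any other pair in the series (0.99657 for the next). Skeletal muscle transcripts were high on vehicle replicates 1 and 5 (Ckm 11.73 and 9.55) and present at lower signals on 15 mg/kg replicates 2, 4 and 5 (Ckm 6.62, 7.71 and 7.03, against 4.81 to 5.13 on the other 4 arrays). Pancreatic Ctrb1 was high on vehicle replicates 2 and 4 and 15 mg/kg replicate 5 (11.68, 9.45 and 10.25). The intestinal mucin Muc2 read 10.36 on 15 mg/kg replicate 5, 7.67 on 15 mg/kg replicate 2, 8.31 on vehicle replicate 2 and at most 4.95 on the other 6 arrays. All 9 arrays carried hepatocyte markers: the mean of 10 lay between 13.88 and 13.96 on the vehicle arrays and between 13.90 and 13.97 at 15 mg/kg. These signals are near the top of the arrays' range, where differences are compressed, so they do not measure small differences in hepatocyte content. Median signals per array lay between 6.06 and 6.16, and the number of arrays limits the precision.

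In the fit across all probe sets, Cyp1a1 was the 1 named gene that rose at 15 mg/kg, by 59.7-fold. The only other probe set that passed was 1371076_at, which the platform annotation assigns to more than 1 gene and which is therefore given by its ID. Thus 2 of 31042 probe sets (0.00644%) had an adjusted p under 0.05, both higher and none lower. At an unadjusted p under 0.05 there were 2787 probe sets, 1797 higher and 990 lower. Over the 14217 genes, each represented by 1 probe set, the median difference was -0.0025 on the log2 scale, and 49.5% of differences were above 0. Because few tests passed, other genes are described by their values, their intervals and whether the groups overlapped. All 4 arrays at 15 mg/kg lay above all 5 vehicle arrays for 281 of the 14217 genes (1.98%) and below all of them for 197 (1.39%), and counts within gene lists are read against these shares. The lists were chosen with earlier results of these data known, so the shares describe the lists and are not an independent test.

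Cyp1a1 encodes the monooxygenase that is the classical readout of AhR. Its log2 signal was 7.10, 7.57, 7.97, 7.43 and 8.36 on vehicle replicates 1 to 5, and 14.17, 13.34, 13.68 and 13.16 on 15 mg/kg replicates 2 to 5. The groups were far apart, and each spanned little more than 1 unit. The means were 7.69 ± 0.491 (SD, n = 5) and 13.59 ± 0.443 (SD, n = 4), a difference of 5.90 ± 0.275 (SE) with a 95% interval of 5.28 to 6.52 and limma adjusted p = 6.38e-05. At 50 mg/kg the mean was 14.20 ± 0.0780 (SD, n = 5), 0.61 above 15 mg/kg (95% interval 0.23 to 1.00, limma adjusted p = 0.503). Both means lie close to the top of the arrays' range, where the highest signal on any of the 19 arrays was 15.06. Leaving out the 3 arrays with the most transcripts of other tissues (vehicle replicates 1 and 2 and 15 mg/kg replicate 5) gave 5.81 (limma adjusted p = 0.00216). The arrays kept were not free of such transcripts. Vehicle replicate 5 still carried muscle (Ckm 9.55) and vehicle replicate 4 pancreas transcripts (Ctrb1 9.45). Lower signals remained on 15 mg/kg replicates 2 (Muc2 7.67) and 4 (Ckm 7.71). The call was lost with all 19 arrays in the fit (limma adjusted p = 0.0724), at an unchanged difference of 5.90. With replicate 1 of 0.1 mg/kg left out of that fit, a choice made after seeing the data, limma adjusted p was 2.18e-09.

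Cyp1a2, the neighbouring Cyp1 monooxygenase of hepatocytes, showed the next largest difference of the AhR targets and a wide spread. Vehicle arrays read 7.94, 7.64, 8.66, 8.34 and 8.98, and the 15 mg/kg arrays 14.08, 11.32, 12.35 and 10.66. Every 15 mg/kg array lay above every vehicle array, and replicate 2 stood highest while replicate 5 stood lowest. The difference of 3.80 ± 0.609 (SE, 95% interval 2.43 to 5.16, 13.9-fold) had a limma adjusted p of 0.200 and so did not pass. At 50 mg/kg Cyp1a2 was 5.75 above vehicle (limma adjusted p = 1.90e-06), with a 50 minus 15 mg/kg difference of 1.96 (95% interval 0.71 to 3.20).

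Cyp1b1, the Cyp1 enzyme found mostly outside hepatocytes, did not separate the groups. Its signals were 6.92, 7.56, 5.90, 6.34 and 5.70 in vehicle livers and 9.89, 6.17, 7.32 and 7.36 at 15 mg/kg, so that replicate 2 alone lay above all vehicle arrays. The difference was 1.20 with an interval of -0.32 to 2.72, and 0.47 without replicate 2. Nqo1, a quinone reductase regulated by both AhR and NRF2, read 8.13, 8.55, 8.15, 8.16 and 8.12 in vehicle and 10.47, 10.00, 9.67 and 9.38 at 15 mg/kg. The vehicle arrays were tight apart from replicate 2, and all 15 mg/kg arrays stood above them. The difference was 1.66 ± 0.201 (SE, interval 1.21 to 2.11, 3.16-fold, limma adjusted p = 0.0515), just outside the threshold, and 50 mg/kg lay 1.19 further up (interval 0.43 to 1.95).

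Ahr, the receptor itself, read 5.92, 4.76, 6.13, 6.72 and 6.26 in vehicle and 7.35, 6.90, 7.05 and 7.03 at 15 mg/kg. The 15 mg/kg arrays lay above all vehicle arrays, close together, and the vehicle arrays were spread. The difference of 1.13 (interval 0.39 to 1.87) had a limma adjusted p of 0.535, and it was 0.73 without the 3 arrays named above or with the mean of the gene's 2 probe sets. Ahrr, the AhR repressor, and Tiparp, a poly(ADP-ribose) polymerase that limits AhR activity, both differed by -0.03 (intervals -0.20 to 0.15 and -0.27 to 0.21). These small differences turned above 0 under several alternatives. Ahrr signals lay between 3.80 and 4.10 on all 9 arrays.

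**Figure D1:**
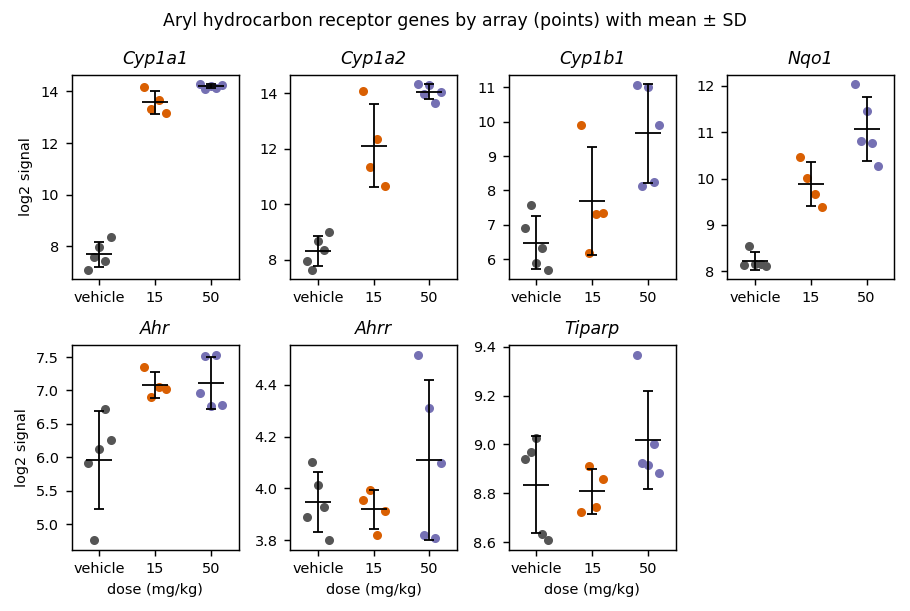
Log2 signal of 7 genes of the AhR pathway (y axis, own scale per gene) on each vehicle, 15 mg/kg and 50 mg/kg array (points), with group mean ± SD as bars. Cyp1a1, Cyp1a2, Nqo1 and Ahr show all 4 arrays at 15 mg/kg above all 5 vehicle arrays, while Cyp1b1, Ahrr and Tiparp overlap.

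Of 16 measured AhR targets, 1 (Cyp1a1) rose, none fell and 15 did not pass. For 4 of them (25.0%, against 1.98% of all genes) all 15 mg/kg arrays lay above vehicle, namely Cyp1a1, Cyp1a2, Nqo1 and Nfe2l2. Nfe2l2 encodes NRF2 and differed by 0.51 (interval 0.25 to 0.77). The list's median difference was 0.19 at 15 mg/kg, in a range of -0.67 to 5.90. At 50 mg/kg the median was 0.40 and 6 members passed. Cd36, a fatty acid uptake protein on the list, was 8.30 to 9.55 at 15 mg/kg and 9.22 to 10.19 in vehicle, a difference of -0.67 (interval -1.28 to -0.06). Ahr was the 1 gene of 10 in the list of the receptor and its partners whose groups did not overlap.

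The enzymes that CAR and PXR are known to regulate made up the most uniform group. Of 27 measured members, listed with earlier results of these data known, none passed on its own. Cyp2b1 and Cyp2b2 were on the list but had no probe set assigned to either alone, so they are not among the 27. Probe sets assigned to several genes, such as 1371076_at described below, do not enter these counts either. For 16 (59.3%, against 1.98% of all genes) every 15 mg/kg array lay above every vehicle array, and for none did they all lie below. The differences were above 0 for 25 members, with a median of 0.61 and a range of -0.17 to 2.81. The mean signal over the list was 9.12, 8.76, 9.12, 8.88 and 9.09 on vehicle replicates 1 to 5 and 10.00, 9.81, 9.74 and 9.43 on 15 mg/kg replicates 2 to 5. Without the 3 arrays with the most other-tissue transcripts 19 members lay wholly above vehicle (8.84% of all genes did so with 3 against 3 arrays, and 9.88% lay below), and 2 members passed.

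Probe set 1371076_at read 11.94, 11.85, 12.48, 12.67 and 12.45 in vehicle and 14.15, 14.04, 14.09 and 13.92 at 15 mg/kg. The 15 mg/kg arrays were more than 1 unit above the highest vehicle array and close to each other. The difference was 1.77 ± 0.169 (SE, interval 1.39 to 2.15, 3.41-fold, limma adjusted p = 0.0234), and 1.56 without the 3 arrays. Over 22 alternatives its limma adjusted p ranged from 0.000113 to 0.359 and passed in 13. At 50 mg/kg it was 0.24 above 15 mg/kg (interval 0.08 to 0.40), again near the top of the range.

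Among the Cyp2c monooxygenases, which oxidise drugs and steroids, Cyp2c6v1 read 11.73, 11.28, 12.38, 11.95 and 12.61 in vehicle and 14.22, 14.13, 14.20 and 13.90 at 15 mg/kg. The exposed arrays were nearly level and the vehicle arrays were spread over more than 1 unit. The difference was 2.12 ± 0.242 (SE, interval 1.58 to 2.66, 4.34-fold, limma adjusted p = 0.0511), and 50 mg/kg lay 0.17 higher (interval -0.02 to 0.36), with both means near the top of the range, where differences are compressed. Cyp2c7, which is female-biased in adult rat liver, read 4.95, 4.47, 4.90, 4.70 and 5.03 in vehicle and 8.22, 7.19, 7.47 and 6.22 at 15 mg/kg. All exposed arrays lay above vehicle, and they were more spread than the vehicle arrays. The difference was 2.47 (interval 1.73 to 3.21, limma adjusted p = 0.0947). Cyp2c11, the male-specific enzyme of adult rats, differed by 1.13 (interval 0.48 to 1.77, limma adjusted p = 0.535), with 4.99 on replicate 5 only just above the highest vehicle array at 4.92.

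Cyp2a3, a member of the coumarin-oxidising Cyp2a subfamily, read 6.48, 4.98, 6.05, 5.99 and 6.62 in vehicle and 9.77, 8.66, 8.73 and 8.15 at 15 mg/kg. All exposed arrays were above vehicle, by 2.81 ± 0.381 on average (SE, interval 1.95 to 3.66, 6.99-fold, limma adjusted p = 0.0955), and 50 mg/kg lay a further 1.28 up (interval 0.48 to 2.08). Cyp2a1, a testosterone hydroxylase, differed by 0.59 (interval 0.26 to 0.93).

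The Cyp3a members, the typical PXR targets, were uneven. Cyp3a23-3a1 read 13.32, 13.43, 13.54, 13.33 and 13.30 in vehicle and 14.17, 14.08, 14.08 and 13.91 at 15 mg/kg. The groups did not overlap and both were tight, with a difference of 0.68 ± 0.0802 (SE, interval 0.50 to 0.86, limma adjusted p = 0.0511). Cyp3a2 differed by 0.17 (interval 0.03 to 0.31) from a vehicle mean of 13.98, and Cyp3a9 by 0.33 (interval 0.12 to 0.54) from 3.71, near the low end of the range, both without overlap. Cyp3a18 overlapped fully (8.84 to 9.99 against 8.30 to 10.42 in vehicle), and its difference of -0.13 changed sign under 6 alternatives.

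**Figure D2:**
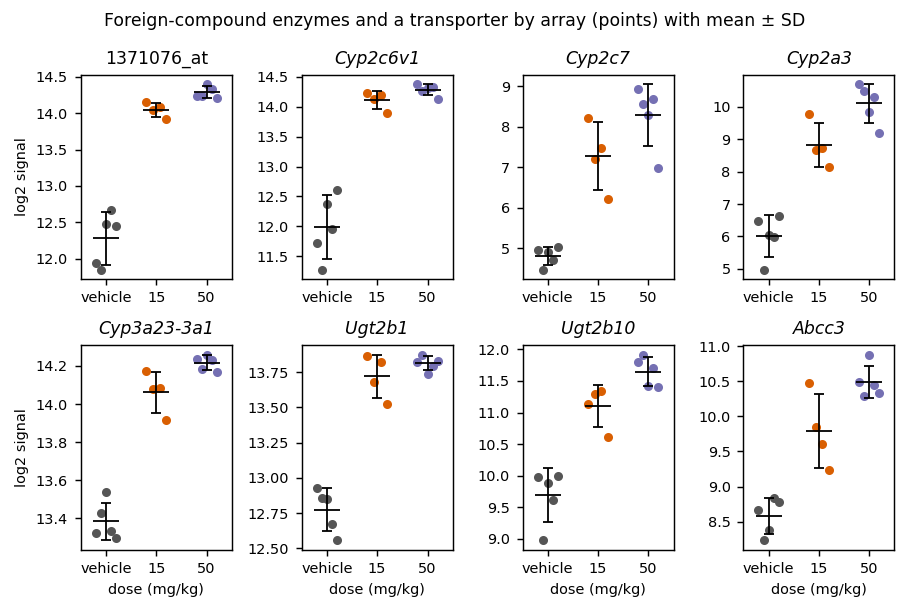
Log2 signal (y axis, own scale per panel) of 1 probe set and 7 genes for foreign-compound enzymes and a transporter on each array (points), with group mean ± SD. In all 8 panels the 4 arrays at 15 mg/kg lie above the 5 vehicle arrays, and 1371076_at, Cyp2c6v1, Cyp3a23-3a1 and Ugt2b1 are close to the top of the arrays' range at both doses, where differences are compressed.

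Several partner enzymes of the P450s also lay above vehicle. Por, the reductase that passes electrons to microsomal P450s, read 9.44, 9.24, 9.92, 9.61 and 9.48 in vehicle and 10.47, 10.17, 10.47 and 10.08 at 15 mg/kg. Alas1, the first enzyme of heme synthesis, read 10.63, 10.37, 11.00, 11.01 and 11.20 in vehicle and 11.73, 11.58, 11.76 and 11.56 at 15 mg/kg. In both genes every exposed array lay above vehicle, by 0.76 (interval 0.44 to 1.08) and 0.81 (interval 0.46 to 1.17), each with limma adjusted p = 0.427. The other Por probe set, lower in signal, differed by 0.59 and overlapped. Alas1 at 50 mg/kg was 0.70 above 15 mg/kg (interval 0.49 to 0.90, limma adjusted p = 0.153). Across the 17 genes of P450 electron and heme supply none passed, and 4 (23.5%) lay wholly above vehicle: Por, Alas1, the electron donor Cyb5a and the heme-binding protein Pgrmc1. The list's median was -0.06, so the other members lay around or below vehicle.

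Among the conjugating enzymes the members above vehicle were Ugt2b genes. Ugt2b1, which glucuronidates steroids and phenols, read 12.93, 12.86, 12.85, 12.68 and 12.56 in vehicle and 13.86, 13.68, 13.82 and 13.52 at 15 mg/kg. Its groups were separated by more than their own width. The difference was 0.95 ± 0.104 (SE, interval 0.72 to 1.18, 1.93-fold, limma adjusted p = 0.0501), the smallest adjusted p among named genes that did not pass. Ugt2b10 read 9.99, 8.98, 9.89, 9.61 and 10.00 in vehicle and 11.13, 11.30, 11.35 and 10.61 at 15 mg/kg, a difference of 1.41 (interval 0.89 to 1.92, limma adjusted p = 0.200). Ugt2b15 and Ugt2b35 also lay wholly above vehicle, by 0.86 (interval 0.54 to 1.18) and 0.43 (interval 0.23 to 0.64). These 4 genes share much of their sequence, so signal between family members cannot be fully told apart on an array. They were the 4 of 24 conjugation genes (16.7%) without overlap, none passed, and the list's median was 0.14. Sult1b1, a sulfotransferase for thyroid hormones, read 11.55 to 12.51 at 15 mg/kg and 10.84 to 11.82 in vehicle, a difference of 0.54 with overlap. Sult1c2 differed by -0.76 with an interval of -2.87 to 1.34, and its only high signal was 8.11 on vehicle replicate 2, the array with kidney transcripts.

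Hydrolases and glutathione enzymes were higher in fewer members. Ephx1, microsomal epoxide hydrolase, read 11.38, 11.13, 11.61, 11.52 and 11.38 in vehicle and 12.57, 12.20, 12.31 and 11.92 at 15 mg/kg. Ces2c, a carboxylesterase, read 5.95, 5.75, 6.32, 6.11 and 5.88 in vehicle and 6.88, 6.71, 7.27 and 7.03 at 15 mg/kg. Both were separated from vehicle, by 0.85 (interval 0.54 to 1.16, limma adjusted p = 0.200) and 0.97 (interval 0.65 to 1.29, limma adjusted p = 0.147). With Akr1c14, a hydroxysteroid dehydrogenase that differed by 0.49 (interval 0.20 to 0.79), they were the 3 of 28 carboxylesterases and aldo-keto reductases (10.7%) without overlap. In the list of NRF2 and glutathione genes, NRF2 being the factor that answers electrophiles and oxidants, 7 of 45 (15.6%) lay wholly above vehicle and none below, none passed, and the median was 0.11. Gstm1, a glutathione transferase, differed by 0.48 (interval 0.08 to 0.88) with 12.04 on replicate 2 against 11.24 to 11.37 on the other exposed arrays. Akr7a3, an aldehyde reductase, differed by 0.98 (interval 0.28 to 1.68) and overlapped through vehicle replicate 2 at 8.43. Gpx2, an intestinal glutathione peroxidase, differed by 0.96 with an interval of -0.96 to 2.87, and its highest signal was 9.42 on replicate 5, the array with intestinal transcripts. Gstp3 overlapped (-0.27, interval -0.81 to 0.26), although it was -1.40 against vehicle at 50 mg/kg (limma adjusted p = 0.0372).

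Of the hepatic transporters, 3 export pumps lay above vehicle. Abcc3, the pump for conjugates on the blood side, read 8.67, 8.23, 8.38, 8.83 and 8.78 in vehicle and 10.48, 9.85, 9.60 and 9.23 at 15 mg/kg. Abcb1a, P-glycoprotein, read 5.43, 4.89, 5.66, 5.74 and 4.60 in vehicle and 6.37, 6.25, 6.59 and 6.87 at 15 mg/kg. Abcc2, the conjugate pump on the bile side, read 8.65 to 9.31 in vehicle and 9.52 to 9.72 at 15 mg/kg. None of the 3 overlapped with vehicle, and their differences were 1.21 (interval 0.69 to 1.74), 1.25 (interval 0.70 to 1.80) and 0.64 (interval 0.31 to 0.96), with limma adjusted p between 0.427 and 0.507. They were the 3 of 28 hepatic transporters (10.7%) without overlap, none passed, the other export pumps on the list overlapped, and the list's median was 0.08.

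**Figure D3:**
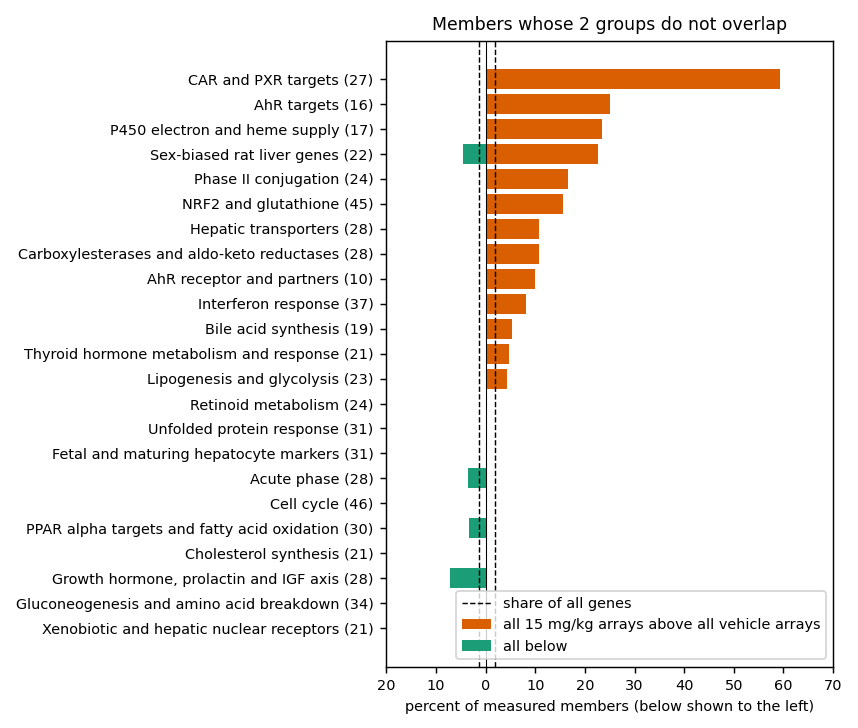
Percent of measured members (x axis) of 23 gene lists (y axis, number measured in parentheses) for which all 4 arrays at 15 mg/kg lie above all 5 vehicle arrays (right) or below them (left), with dashed lines at the shares over all genes, 1.98% and 1.39%. The CAR and PXR targets reach 59.3%, followed by the AhR targets at 25.0%, while 7 lists have no such member in either direction. Some genes are on several lists.

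Beyond foreign-compound genes, Mnd1 and Rcan1 were among the 10 genes with the smallest p. Mnd1, a protein of meiotic recombination, read 7.86, 7.65, 8.16, 7.87 and 7.77 in vehicle and 8.90, 9.07, 8.81 and 8.65 at 15 mg/kg. Rcan1, a regulator of calcineurin, read 9.08, 9.16, 9.50, 9.24 and 9.21 in vehicle and 10.13, 10.04, 9.85 and 9.96 at 15 mg/kg. Neither gene overlapped, with differences of 1.00 (interval 0.73 to 1.26, limma adjusted p = 0.0511) and 0.76 (interval 0.54 to 0.98, limma adjusted p = 0.0850). Mnd1 was a further 0.62 higher at 50 mg/kg (interval 0.18 to 1.05), and Rcan1 0.07 (interval -0.29 to 0.43).

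Interferon-responsive genes lay mostly above vehicle by small amounts. Of 37 members none passed, 33 differences were above 0, the median was 0.26, and 3 (8.11%) lay wholly above vehicle. Ifi27l2b, an interferon-inducible membrane protein, read 10.16, 9.90, 10.97, 11.12 and 10.54 in vehicle and 11.54, 11.97, 11.79 and 11.76 at 15 mg/kg, a difference of 1.23 (interval 0.69 to 1.77, limma adjusted p = 0.427). Usp18, which removes the ubiquitin-like protein ISG15 from its targets, and Oas1a, a sensor of double-stranded RNA, were the others without overlap, at 0.87 (interval 0.46 to 1.28) and 0.40 (interval 0.16 to 0.65). Isg15, Rtp4 and the chemokine Cxcl10 differed by 0.67 (interval 0.19 to 1.14), 0.69 (interval 0.23 to 1.15) and 0.67 (interval 0.21 to 1.12) and overlapped. The mean of 11 lymphocyte markers lay between 5.06 and 5.17 at 15 mg/kg and between 4.63 and 5.08 in vehicle, with a median difference of 0.20. Whether such cells took part in the interferon values was not tested.

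In the list of growth hormone, prolactin and IGF genes, Lepr and Prlr lay below vehicle and did not pass. Lepr, the leptin receptor, read 7.81, 6.74, 7.58, 7.27 and 7.08 in vehicle and 6.41, 6.47, 5.65 and 6.67 at 15 mg/kg. Every exposed array lay below the lowest vehicle array, though by a narrow margin, and the difference was -0.995 (interval -1.56 to -0.43, limma adjusted p = 0.535). The mean of the gene's 7 probe sets gave -0.402, and several of those probe sets read near the low end of the range. Prlr, the prolactin receptor, read 8.76 to 10.25 in vehicle and 8.24 to 8.74 at 15 mg/kg, a difference of -0.61 (interval -1.25 to 0.02) in which vehicle replicate 5 at 10.25 stood far above its group (-0.35 without it). The other probe sets of Prlr differed by -0.80 and -0.63 and overlapped. Lepr and Prlr, each by its probe set with the highest mean, were the 2 of 28 genes on the list without overlap (7.14% below, against 1.39% of all genes). The binding proteins Igfbp2, Igfbp3 and Igfbp5 overlapped, at -0.16 (interval -0.36 to 0.04), -0.44 (interval -0.89 to 0.01) and -0.67 (interval -1.81 to 0.48).

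Amotl1, a junction protein that binds the growth regulator YAP, read 10.21, 9.57, 9.21, 9.67 and 10.47 in vehicle and 8.61, 8.69, 8.82 and 9.02 at 15 mg/kg. All exposed arrays were below vehicle, by -1.04 (interval -1.58 to -0.51, limma adjusted p = 0.513), and at 50 mg/kg the difference from vehicle was -1.23. The mean of the gene's 2 probe sets gave -0.562 at 15 mg/kg. Ccnd1, cyclin D1, which drives entry into the cell cycle, lay at 9.25 to 9.52 at 15 mg/kg against 9.18 to 10.24 in vehicle. Its difference of -0.22 (interval -0.65 to 0.21) was 0.03 without the 3 arrays, whereas 50 mg/kg lay -0.97 from 15 mg/kg (interval -1.29 to -0.65, limma adjusted p = 0.257). Of 46 cell cycle genes none passed, none was free of overlap and the median was -0.06. Without the 3 arrays the list's median was -0.16 and 14 members lay wholly below vehicle, where 9.88% of all genes did so. The erythroid genes, described further on, moved with it (median -0.91 without the 3 arrays), and their part in the cell cycle values was not tested.

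No gene of energy and lipid metabolism on the lists passed. Pklr, the liver pyruvate kinase, differed by -0.41 (interval -0.73 to -0.08), and Me1, malic enzyme, which supplies NADPH, by 0.50 (interval 0.31 to 0.69, limma adjusted p = 0.236) with 7.67 to 7.91 at 15 mg/kg above 7.11 to 7.41 in vehicle. Me1 was the 1 gene of 23 in the lipogenesis and glycolysis list without overlap. Elovl6, a fatty acid elongase, differed by 0.41 (interval 0.09 to 0.73). Among 30 PPAR alpha and fatty acid oxidation genes, 22 differences were below 0, the median was -0.06, and 1 lay wholly below vehicle (3.33%), Crat, carnitine acetyltransferase, at -0.45 (interval -0.74 to -0.17), and Acot1, an acyl-CoA thioesterase, had the lowest difference, -1.22 (interval -3.03 to 0.60), with vehicle signals from 7.38 to 11.52 (-1.94 without vehicle replicate 5, the lowest). Cyp4a8, a fatty acid hydroxylase, read 4.77 on 15 mg/kg replicate 5 and 9.13 to 9.30 on the other exposed arrays. None of 21 cholesterol synthesis genes passed or was free of overlap, 18 lay above 0 and the median was 0.19. Examples were Insig1 at 0.47 (interval -0.05 to 1.00), Msmo1 at 0.42 (interval 0.08 to 0.75) and Insig2 at 0.41 (interval 0.10 to 0.72). In bile acid synthesis Akr1c14 was the 1 of 19 genes without overlap, and Cyp7a1, the rate-limiting enzyme, differed by 0.62 (interval -0.34 to 1.57) with its lowest signal, 6.51, on vehicle replicate 2 (0.23 without it).

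Thyroid hormone genes were described because brominated diphenyl ethers are known to lower circulating thyroxine in rats. Dio1, the liver deiodinase, read 6.13, 6.03, 7.08 and 6.43 at 15 mg/kg and 5.92 to 7.28 in vehicle, which overlapped (-0.19, interval -0.82 to 0.44). The carrier proteins Ttr and Serpina7 differed by 0.04 (interval -0.09 to 0.17) and -0.29 (interval -0.68 to 0.11). Crym, a thyroid hormone-binding protein of the cytosol, differed by -0.97 (interval -2.30 to 0.36), and its highest signal was 9.50 on vehicle replicate 2 (-0.43 without that array). Of 21 such genes none passed and Me1 alone (4.76%) lay wholly above vehicle.

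Markers of hepatocyte age and state stayed with the bulk of genes. Of 31 fetal and maturing hepatocyte markers none passed and none was free of overlap. Afp, the fetal serum protein, read 14.62 to 14.70 at 15 mg/kg and 14.56 to 14.66 in vehicle, a difference of 0.03 (interval -0.10 to 0.16). Alb differed by 0.01 (interval -0.11 to 0.13; -0.02 after cyclic loess), and both genes lay at the top of the range, where differences are compressed. Tat, an amino acid enzyme that appears after birth, spread from 8.80 to 11.69 within vehicle and differed by 0.74 (interval -0.71 to 2.19; 0.02 without the 3 arrays). Among 28 acute phase genes none passed, Crp, the C-reactive protein, differed by 0.88 (interval 0.37 to 1.40) and overlapped through vehicle replicate 3 at 11.84. Itih3 was the 1 gene wholly below vehicle (3.57%), by -0.07. Lcn2 and Orm1 differed by -0.29 (interval -0.84 to 0.26) and -0.24 (interval -0.77 to 0.30).

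The remaining lists held no member that passed. The 31 unfolded protein response genes had a median of 0.08, with Dnajc3 at 0.39 (interval 0.14 to 0.65), Manf at 0.29 (interval -0.05 to 0.64), Trib3 at 0.78 (interval -0.76 to 2.33; 0.01 without the 3 arrays) and Sdf2l1 at 0.09 (interval -0.29 to 0.48). Among 21 nuclear receptor genes none was free of overlap, and Rora and Nr1h3 differed most, by 0.53 (interval 0.06 to 1.00) and 0.35 (interval -0.10 to 0.79). The 24 retinoid genes likewise had none, with Retsat at -0.76 (interval -1.49 to -0.02), and Rbp2, an intestinal retinol-binding protein, at 0.88 through 10.41 on 15 mg/kg replicate 5. The 34 genes of gluconeogenesis and amino acid breakdown had a median of 0.00 and none free of overlap. Of 22 genes that are sex-biased in adult rat liver, 5 (22.7%) lay wholly above vehicle: Cyp2c11, Cyp2c7, Cyp3a2, Cyp2a1 and Akr1c14. All but Akr1c14 are also on the CAR and PXR list, so this share is not a separate result. The 22 hold members biased to either sex, and Prlr was the 1 gene wholly below (4.55%). Hao2 (-1.41, interval -4.84 to 2.01) and Car3 (-1.36, interval -3.66 to 0.93) had the lowest differences on that list, and each was high in vehicle on arrays with kidney or muscle transcripts (Hao2 11.70 on replicate 2, Car3 11.97 on replicate 1). In the cell cycle list Rb1 and Cdc25b differed by -0.44 (interval -0.86 to -0.02) and -0.43 (interval -1.11 to 0.26).

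**Figure D4:**
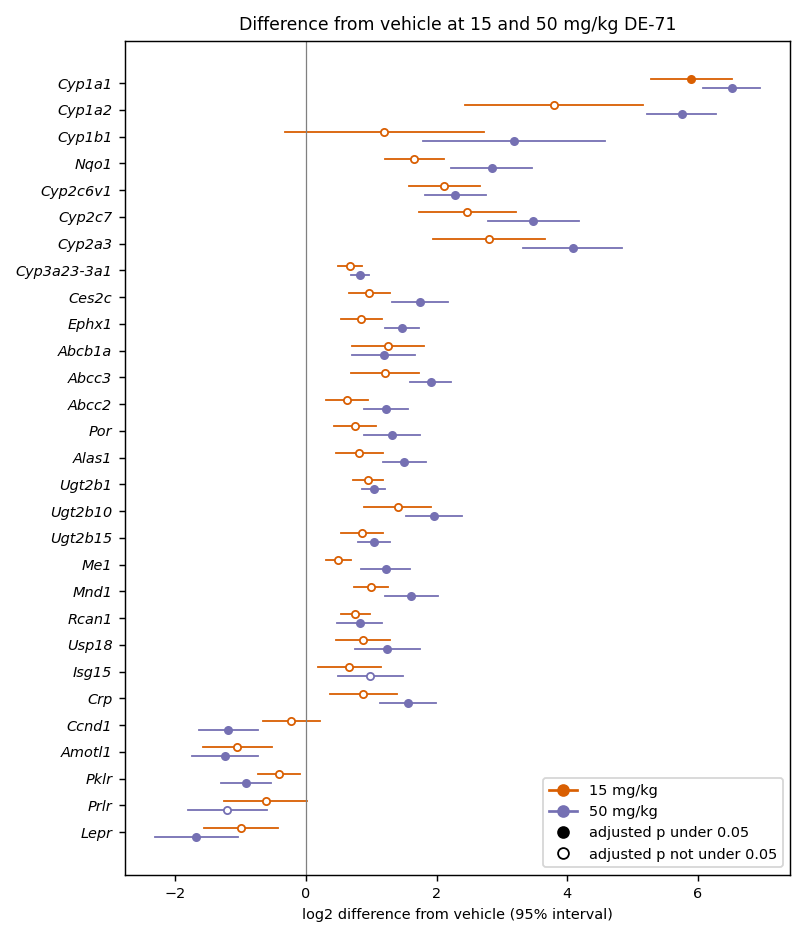
Log2 difference from vehicle (x axis) at 15 mg/kg (orange) and 50 mg/kg (purple) with 95% intervals for 29 genes (y axis). Filled points had a limma adjusted p under 0.05, which at 15 mg/kg holds for Cyp1a1 alone. Both doses use the same 5 vehicle arrays.

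Set beside 50 mg/kg, the named genes at 15 mg/kg lay closer to vehicle in most but not all cases. At 50 mg/kg 376 of 31042 probe sets passed against vehicle (1.21%), 301 higher and 75 lower. With early and late array numbers as a block 38 passed. Most arrays at 50 mg/kg had early numbers, unlike the other groups, as described further on. The direct test of 50 against 15 mg/kg called none (0%), with 2577 probe sets at an unadjusted p under 0.05 and a smallest limma adjusted p of 0.153. No difference between these doses passed. Without 15 mg/kg replicate 4 that test called 5, all lower at 50 mg/kg. Of the 27 CAR and PXR targets, 14 passed at 50 mg/kg (241 of all 14217 genes did), where the list's median was 1.04. Of the 27, 19 lay further from vehicle at 50 than at 15 mg/kg. Such a count was not particular to this list. It was 20 of 28 growth hormone, prolactin and IGF genes and 22 of 31 unfolded protein response genes, but 15 of 46 cell cycle genes. The share over all genes was not computed. The genes with the least further difference included Ahr (0.03, interval -0.38 to 0.44), Abcb1a (-0.06, interval -0.39 to 0.27), Ifi27l2b (0.02, interval -0.24 to 0.28) and Ugt2b1 (0.09, interval -0.09 to 0.27), and these intervals still allow some difference. Ugt2b1 lay near the top of the range at both doses. Genes with a larger one included Ces2c (0.78, interval 0.32 to 1.25), Ephx1 (0.62, interval 0.30 to 0.95) and Abcc3 (0.70, interval 0.20 to 1.19).

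The 16 lists of cell types and other tissues held no member that passed. The 16 erythroid genes, which mark the blood-forming cells of the newborn liver, had a median of -0.28, with list means of 8.43 to 10.22 in vehicle and 9.08 to 9.71 at 15 mg/kg. Without the 3 arrays the median was -0.91, and 14 of the 16 lay wholly below vehicle (against 9.88% of all genes). Vehicle replicates 1 and 2, left out there, had the lowest erythroid means of their group (8.43 and 9.46). The vehicle arrays kept read 10.10 to 10.22, so the larger difference depends on which vehicle arrays were kept. The 12 neutrophil genes had a median of -0.25, and without the 3 arrays -0.36 with 8 wholly below vehicle. The 22 stellate cell and matrix genes had a median of -0.28, and without the 3 arrays -0.10 with 2 wholly below. In whole liver, fewer cells of a type and less RNA per cell cannot be told apart. The medians of the 26 muscle genes (-0.60), the 13 kidney genes (-0.66) and the 10 intestinal genes (0.78) became 0.10, 0.07 and 0.23 without the 3 arrays. Apoa4, an apolipoprotein of gut and liver, read 7.94 to 8.47 on 15 mg/kg replicates 2 to 4, 12.31 on replicate 5 and 6.11 to 7.73 in vehicle, with replicate 5 far above the others and a difference of 2.35 (interval 0.49 to 4.22; 1.31 without replicate 5).

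**Figure D5:**
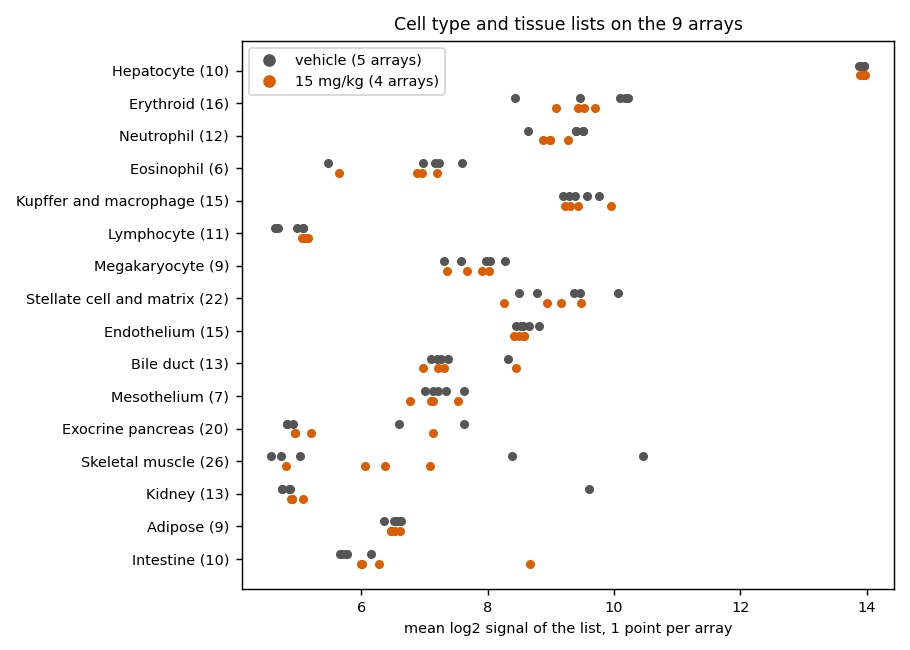
Mean log2 signal (x axis) of 16 cell type and tissue lists (y axis, number measured in parentheses), with 1 point per vehicle array and 1 per 15 mg/kg array. Hepatocyte points of both groups coincide near 13.9. Several arrays stand to the right of the others for pancreas and muscle, and single arrays for kidney and intestine. For bile duct, vehicle replicate 2 and 15 mg/kg replicate 5 do so (8.33 and 8.45).

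In the order of array numbers given in the labels, 1 vehicle array (replicate 1) and 1 exposed array (replicate 2) fell among numbers 1 to 8 and the rest among 9 to 20. The exposed array in the first stretch was the highest of its group for Cyp1a1, Cyp1a2, Cyp1b1, Nqo1, Cyp2c7, Cyp2a3 and Abcc3. With the stretch as a block the difference for Cyp1a1 was 5.90 (limma adjusted p = 0.000419) and that for 1371076_at 1.78 (limma adjusted p = 0.0533), so the second was no longer called. Within the first stretch Cyp1a1 read 14.17 against 7.10, with 1 array each. The labels do not say what the array numbers stand for. Of the arrays at 50 mg/kg, 4 fell among numbers 1 to 8 and 1 among 9 to 20. Differences of 50 mg/kg from the other 2 groups therefore cannot be fully told apart from array number.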

How the data were processed

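Per the labels, 100 ng of liver RNA went into the 3' IVT Plus amplification for Affymetrix Rat230_2 arrays. The deposited values are log2 signals from RMA, per the submitters' processing notes. RMA quantile-normalizes arrays and compresses differences near both ends of the range. Of 31099 probe sets 57 controls were left out. The platform annotation gave 20826 of the others 1 symbol, 436 several and 9780 none, and 20758 matched RefSeq by gene ID. A gene stands for its 1-symbol probe set with the highest mean over the 19 arrays.

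The 9 arrays were fitted with limma 3.58.1 in R 4.3.3, 1 mean per group (7 residual and 2.58 prior degrees of freedom). Tests were two-sided, p-values were adjusted over all 31042 probe sets by Benjamini-Hochberg, and intervals are 95%. The submitters' R/maanova was not used. The fits of 50 mg/kg against vehicle and against 15 mg/kg were made in the same way. The fit was tested on simulated data. The members and the 23 pathway and 16 cell type lists were chosen with earlier results of these data known. The genes named were the 10 with the smallest p, up to 4 members per pathway list and 3 per cell type list with the largest difference, and a set of genes for foreign-compound and hormone pathways. Nfe2l2, Cyp2a1, Pgrmc1, Ugt2b35, Oas1a and Itih3 were chosen after their values were seen. The alternatives varied the arrays, normalization, filter, probe set rule, variance model and blocks.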

Additional observations from a re-analysis of the deposited data

Results flagged for a closer look

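In 176 groups of 4 or 5 arrays (88 genes or probe sets in both groups), 19 had 1 array far from the rest of its group. The cut used marks about 1 in 20 groups of random values. Many of these genes were named for a large difference, which 1 odd array can make, and all share the same arrays. The 19 therefore cannot be read against that rate. Vehicle replicate 2 was such an array 6 times. It was high for Nqo1 (8.55, others 8.12 to 8.16), Sult1c2 (8.11, others 3.03 to 3.47), Gpx2 (6.92, others 4.98 to 5.50) and Hao2 (11.70, others 3.74 to 3.96), and low for Cyp7a1 (6.51, others 8.04 to 8.63) and Serpina7 (12.06, others 12.70 to 12.87).

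Replicate 5 of 15 mg/kg, the array with intestinal transcripts, was high for Apoa4 (12.31, others 7.94 to 8.47) and Rbp2 (10.41, others 7.71 to 8.08), and low for Cyp4a8 (4.77, others 9.13 to 9.30) and Alb (15.03, others at 15.05). Replicate 2 of 15 mg/kg was high for Gstm1 (12.04, others 11.24 to 11.37) and Ttr (14.63, others 14.54 to 14.55) and low for Rb1 (8.38, others 8.97 to 9.08).

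Vehicle replicate 5 was high for Prlr (10.25, others 8.76 to 9.09) and Gstm1 (11.37, others 10.82 to 10.98) and low for Sult1b1 (10.84, others 11.58 to 11.82). Vehicle replicate 1 was low for Rb1 (8.76, others 9.35 to 9.54), vehicle replicate 3 high for Crp (11.84, others 10.87 to 11.08) and vehicle replicate 4 low for Pgrmc1 (12.48, others 12.72 to 12.73).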

How the results depend on the processing

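Over up to 23 alternatives for 88 genes and probe sets, 1917 values kept their direction and side of the threshold, 57 newly passed, 11 no longer passed and 28 changed sign, and 78 genes and probe sets never changed sign. Cyp1a1 passed in 21 of 23. The 2 probe sets called at 15 mg/kg became 0 with all 19 arrays, 1 with blocks of early and late array numbers, 1 with an ordinary t, 6 with a trended robust prior, 7 with all probe sets of a gene averaged, 8 after cyclic loess, 9 with a filter at the median level, 12 with array weights, and 1 to 6 leaving out 1 array (1 without vehicle replicate 1 or 15 mg/kg replicate 2, 3 or 4, 4 without vehicle replicate 3, and 6 without 15 mg/kg replicate 5). Alternatives added after seeing the data gave 9 without the 2 arrays with kidney or intestine transcripts, 5 without the 3 named arrays, and 11 with all arrays but replicate 1 of 0.1 mg/kg, whose Cyp1a1 read 14.06.

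With a replicate block 0 passed at 15 mg/kg (Cyp1a1 limma adjusted p = 0.0567) and 57 at 50 mg/kg. Same-numbered arrays had deviations correlated at -0.0748, 0.373, -0.0282 and -0.189, and differently numbered pairs at -0.320 to 0.375. So few pairs cannot show whether same-numbered arrays share more than a number. At 50 mg/kg against vehicle the 376 became 38 with blocks of array numbers and 106 to 554 leaving out 1 array. The count for 50 against 15 mg/kg was 0 to 5 leaving out 1 array, with 5 only without 15 mg/kg replicate 4. The causes were not tested.

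The 28 sign changes fell in differences that did not pass. With array weights Tiparp was 0.0426, Ahrr 0.0016 and Cyp3a18 0.068. After cyclic loess Tiparp was 0.0063 and Alb -0.0199. Cyp3a18 was 0.0898 with the replicate block. Leaving out 1 array gave -0.0844 to 0.0206 for Tiparp, -0.0631 to 0.0122 for Ahrr, -0.44 to 0.0898 for Cyp3a18, -1.08 to 0.192 for Sult1c2, -1.84 to 0.155 for Hao2 and -0.0024 to 1.48 for Gpx2. Without the 2 arrays Ahrr was 0.0146, Sult1c2 0.215 and Hao2 0.274. Without the 3 arrays Tiparp was 0.0349, Ahrr 0.008, Cyp3a18 0.168, Sult1c2 0.117, Orm1 0.0475, Igfbp5 0.0797, Ccnd1 0.0343 and Hao2 0.271.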
